A study of Mus musculus with 4 samples.

Results

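The vessels of the sciatic nerve were described through 10 genes that mark endothelial cells, Pecam1, Cdh5, Kdr, Flt1, Tek, Tie1, Vwf, Plvap, Emcn and Eng. They were found by gene symbol among the 50593 genes of the deposited table, and all 10 were present with 1 entry each. RNA was sequenced from sciatic nerve at 6 months of age, with 2 HSF V30M and 2 HSF WT samples, all of strain 129S1/SvImJ. The methods give n = 4 without saying whether this is per group. By the methods, both groups carry a heterozygous deletion of Hsf1, the gene of heat shock factor 1, which would therefore be shared by the controls. HSF V30M mice carry in addition a transgene of human TTR with the V30M substitution and lack endogenous Ttr, whereas HSF WT mice have no transgene. The promoter of the transgene is not given in the sources used here. The comparison is one of transgene and loss of endogenous Ttr together. The unit of the table is FPKM, the number of fragments scaled to transcript length and library size, and it holds 1 value per gene and group and none per mouse, so that no spread between mice can be given.

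Endothelial cells line every vessel, and in nerve they form the inner face of the blood-nerve barrier within the endoneurium and the more permeable vessels of the epineurium. Pecam1 and Cdh5 (VE-cadherin) hold neighbouring cells together. Kdr and Flt1 are receptors of vascular endothelial growth factor (VEGF), Tek and Tie1 form the receptor complex of the angiopoietins, and Eng is a co-receptor for bone morphogenetic proteins. Vwf is stored in endothelial granules and tethers platelets, Plvap builds the diaphragms of fenestrae and caveolae, and Emcn is a mucin of the luminal surface.

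The group labels could be checked only in part. Mouse Ttr was at 6.10 FPKM in the group labelled HSF V30M, in which the mouse gene is null. It is listed at 0 for HSF WT, which should carry it. The table does not tell reads of the human transgene from reads of the mouse gene. The names HSF V30M and HSF WT therefore stand for the labels throughout, and every direction below rests on them. Hsf1 was at 7.94 FPKM in HSF V30M and 15.0 in HSF WT, so its RNA level was not matched between the groups, although the methods give both the same deletion. The reason was not tested. Read totals are not given, but the lowest values of genes with 1 transcript fall on the worth of 1 fragment. A pair of steps was fitted to these low values in each group. For 1 fragment on a kilobase of effective length they were 0.0391 and 0.0462 FPKM in HSF V30M and 0.0481 and 0.0647 in HSF WT. A fragment thus weighed more, and counting was less precise, in HSF WT. In HSF WT 99.8% of the low values lay within 2% of a step. In HSF V30M, where values are rounded to 2 decimals, 61.9% did, so its pair of steps was set by the fit and is less sure. Counting intervals below are exact 95% intervals for the number of fragments behind a value. They cover counting error only and say nothing of the variation between mice, so an interval that leaves out a fold of 1 is no test of genotype. Where a pair of levels is given without group names, HSF V30M comes first.

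Of the 10 genes, 6 had a higher value in HSF V30M and 4 had a lower one, and of the 6, Cdh5 and Emcn lay below 0 (-0.049 and -0.075 on the log2 scale) when measured from the median of 26 other endothelial genes and above 0 (0.16 and 0.14) when measured from the 19 of these that average 5 FPKM or more, as all members do. Vwf, Flt1 and Eng were higher by more than the fold of 1.5, the fold that the study used, and no member was lower by that much. The background was taken from 15620 genes whose FPKM averaged 1 or more. Of these, 8.22% were higher and 8.44% lower beyond the same fold, 16.7% in either direction. Among genes averaging 5 or more, where all 10 members lie, 13.5% were beyond the fold. No member reached a fold of 2, which 7.92% of the background genes did. Folds for these counts were taken after adding 1 to each FPKM. The members had a median log2 ratio of 0.25 on that scale, against 0.00 over the background genes, of -0.062 when measured from the 26 other endothelial genes, and of 0.15 when measured from the 19. About as many background genes were thus higher as lower. These shares and this median are also the background for every gene list below, and no list was tested against them. Without values per mouse, none of the differences between the groups has a replicate check. In bulk nerve, a different number of endothelial cells and a different amount of RNA per endothelial cell cannot be told apart.

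**Figure D1:**
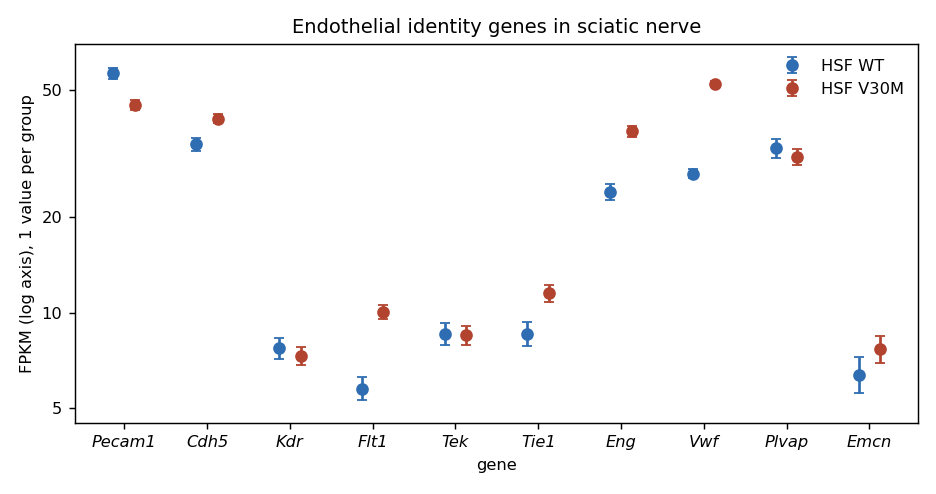
FPKM of the 10 endothelial genes (log axis) in HSF WT (blue) and HSF V30M (red), with bars for the 95% counting interval on the longest coding transcript; each point is 1 value per group. Vwf, Eng and Flt1 stand furthest apart between the groups. The bars of Cdh5 and Tie1 are also separate, as are those of Pecam1, which is lower in HSF V30M and the highest gene in HSF WT at 56.5. Kdr, Tek and Plvap nearly coincide.

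**Figure D2:**
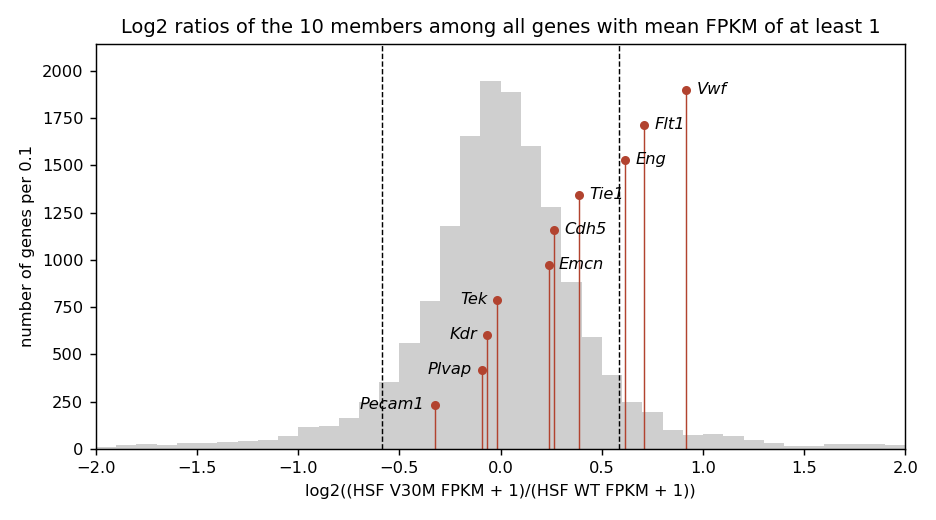
HSF V30M relative to HSF WT as log2 ratio of FPKM + 1 (x axis) for the 10 members (red, heights staggered for legibility) over the number of genes per 0.1 on the log2 scale (grey, left axis, background genes). Dashed lines mark the fold of 1.5, past which Eng, Flt1 and Vwf lie at 0.61, 0.71 and 0.92.

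The promoters of 4 receptor genes are shown so that receptors on both sides of the fold can be read together: Flt1 and Eng, which passed it, and Kdr and Tek, which had nearly equal levels in both groups. Each sequence holds the 250 bases before the transcription start, read 5′ to 3′ on the strand of the gene, from RefSeq on build GRCm38.p6. Capitals mark GGAA or its reverse complement TTCC, the core bound by ETS factors, a family that includes the endothelial regulators Erg and Fli1. The Flt1 window is chr5:147726012-147726261 on the minus strand, and that of Kdr is chr5:75978456-75978705, also on the minus strand. The Eng window is chr2:32646345-32646594 and the Tek window chr4:94739039-94739288, both on the plus strand.
Flt1: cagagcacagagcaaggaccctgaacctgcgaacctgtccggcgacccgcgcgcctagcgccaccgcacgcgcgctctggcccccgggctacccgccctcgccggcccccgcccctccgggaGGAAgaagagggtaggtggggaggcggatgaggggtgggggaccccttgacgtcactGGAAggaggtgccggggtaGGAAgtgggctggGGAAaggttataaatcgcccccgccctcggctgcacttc
Kdr: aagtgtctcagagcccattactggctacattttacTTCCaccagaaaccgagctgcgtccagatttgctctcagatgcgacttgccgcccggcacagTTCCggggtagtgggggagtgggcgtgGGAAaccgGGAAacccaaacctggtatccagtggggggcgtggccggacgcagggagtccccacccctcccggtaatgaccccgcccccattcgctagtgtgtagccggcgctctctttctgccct
Eng: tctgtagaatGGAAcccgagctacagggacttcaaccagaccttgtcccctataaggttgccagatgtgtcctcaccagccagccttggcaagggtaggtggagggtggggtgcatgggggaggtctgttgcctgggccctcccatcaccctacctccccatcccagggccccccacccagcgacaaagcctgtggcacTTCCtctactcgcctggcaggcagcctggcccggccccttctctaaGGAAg
Tek: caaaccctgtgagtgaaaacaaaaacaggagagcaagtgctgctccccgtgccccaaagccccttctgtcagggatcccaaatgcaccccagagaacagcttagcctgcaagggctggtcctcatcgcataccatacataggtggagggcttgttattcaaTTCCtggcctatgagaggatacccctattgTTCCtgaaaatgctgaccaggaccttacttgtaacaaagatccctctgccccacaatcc

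Flt1 and Kdr each held 4 ETS cores, Eng 3 and Tek 2. Among 32851 RefSeq promoter windows of the same length, 93.4% held at least 1 and 33.4% held 4 or more. The longer form AGGAAG or CTTCCT, which contains the core, was found 2 times in Flt1 and 2 times in Eng, and not in the Kdr or Tek window. It was present in 29.5% of all windows. The Flt1 window also had TATAAA, 1 time on the strand of the gene, a motif on either strand in 12.4% of windows, which the other 5 member windows lacked. GATAAG, the GATA motif, was in none of the 6 and in 6.55% of all windows. Of the other members, Tie1 and Emcn also had a promoter entry. Their windows held 7 and 4 ETS cores, and 3.82% of windows held 7 or more. The Tie1 window is chr4:118489850-118490099 on the minus strand. Most of it lies inside the gene as GENCODE places it, 118471191 to 118490061, so the 2 annotations differ on the start. The longer form was found 1 time in Tie1 and 2 times in Emcn, neither of which passed the fold. Its presence therefore did not follow the fold among the members with a window. A match is a run of letters and not a measured binding site.

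At the junctions between endothelial cells, Pecam1 and Cdh5 differed in opposite directions. Pecam1 (ENSMUSG00000020717, chromosome 11, 106654217 to 106750628, minus strand) was at 44.9 FPKM in HSF V30M and 56.5 in HSF WT. These values stand for about 3150 to 3721 and 2831 to 3812 fragments, and the fold of 0.794 had a counting interval of 0.755 to 0.836. Pecam1 was the only member whose interval lay wholly below 1. Cdh5 (ENSMUSG00000031871, chromosome 8, 104101625 to 104144511, plus strand) was at 40.8 and 33.8 FPKM, a fold of 1.21 with an interval of 1.14 to 1.28, or of 0.907 to 1.61 on its shortest transcript. Relative to Pecam1, Cdh5 stood at 0.908 in HSF V30M (0.864 to 0.953) and 0.598 in HSF WT (0.564 to 0.633). Unlike Cdh5, Pecam1 is also made by leukocytes and platelets. Of 10 macrophage genes, 8 were lower in HSF V30M, with a median log2 ratio of -0.48, a range of -1.23 to 0.13 and a summed FPKM of 453.5 against 715.4. The complement genes C1qb, at 58.7 and 138.8, and C1qc, at 44.1 and 101.8, and the lysosomal Cd68, at 15.5 and 30.9, were past the fold. All 5 B cell genes averaging 1 FPKM or more were lower, with a median of -2.07, and the B cell list summed to 3.49 against 29.7. The part of these cells in the Pecam1 value was not tested.

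The VEGF receptors differed from each other. Flt1 (ENSMUSG00000029648, chromosome 5, 147561604 to 147726011, minus strand) binds VEGF-A tightly and is also made as a soluble decoy. Its level of 10.1 FPKM in HSF V30M rested on about 1459 to 1724 fragments and that of 5.77 in HSF WT on 597 to 803. The fold was 1.75, with a counting interval of 1.59 to 1.92, or of 0.765 to 4.36 if all fragments came from the shortest annotated transcript. Kdr (ENSMUSG00000062960, chromosome 5, 75932827 to 75978458, minus strand), the main signalling receptor for VEGF-A in endothelium, was at 7.32 and 7.72 FPKM, a fold of 0.948 with an interval of 0.857 to 1.05. The order of the pair was thus exchanged: Flt1 was 1.38 times Kdr in HSF V30M (1.27 to 1.496) and 0.747 times Kdr in HSF WT (0.668 to 0.835). These intervals were taken on the longest coding transcripts only. On its shortest transcript Flt1 would rest on about 21 to 25 and 9 to 12 fragments, and the intervals would be wider. The gene values do not separate the membrane form of Flt1 from the soluble form, which end at different exons.

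Of 9 other genes listed for the VEGF pathway, most of them ligands or co-receptors, 8 were higher and 1 was lower in HSF V30M. Of the 9, 1 passed the fold, as higher, beside 8.22% of the background genes. The gene past it was Vegfb, a ligand of Flt1 that does not bind Kdr, at 23.9 FPKM in HSF V30M and 13.8 in HSF WT (log2 ratio 0.75). Pgf, another ligand of the list, was at 5.79 and 3.70. Its fold of 1.56 fell below the limit once 1 was added to each FPKM (log2 ratio 0.53). Vegfa, the ligand shared by both receptors, was at 29.0 and 27.7 FPKM. Among the most abundant genes of the list were the co-receptor Nrp2, at 37.2 and 35.8, and the plexin Plxnd1, at 38.2 and 43.8. The median log2 ratio of the list was 0.31, and 0.063 over its genes averaging 5 FPKM or more.

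Tek and Tie1 showed the same kind of split with a smaller size. Tek (ENSMUSG00000006386, chromosome 4, 94739289 to 94874976, plus strand), the kinase that binds angiopoietins, was at 8.47 FPKM in HSF V30M and 8.58 in HSF WT. The fold of Tek was 0.987 (0.886 to 1.099, or 0.550 to 1.80 on its shortest transcript). Tie1 (ENSMUSG00000033191, chromosome 4, 118471191 to 118490061, minus strand), its partner without a firmly established ligand of its own, was at 11.5 and 8.58, a fold of 1.34 (1.21 to 1.49). In HSF WT the levels of the pair did not differ beyond counting error, with a ratio of Tie1 to Tek of 0.999 (0.887 to 1.13), and in HSF V30M the ratio was 1.36 (1.24 to 1.49). Of the angiopoietin system, 3 of 5 genes averaged 1 FPKM or more, all of them higher. Angpt2, the context-dependent antagonist, was at 12.4 and 10.4 FPKM. Ptprb, the phosphatase that restrains Tek, was at 15.3 and 11.8. Dok2, an adaptor that docks on Tek and is also made by leukocytes, passed the fold at 8.05 and 4.68.

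Eng (ENSMUSG00000026814, chromosome 2, 32646595 to 32682669, plus strand) was at 37.2 FPKM in HSF V30M and 24.0 in HSF WT, values that rest on about 2594 to 3064 and 1192 to 1605 fragments. The fold was 1.55 (1.45 to 1.66, or 1.02 to 2.42 on its shortest transcript), and its log2 ratio of 0.61 lies just past the fold limit. The exons of Eng overlap 61 bases of Fpgs on the opposite strand, which was at 11.1 and 7.81 FPKM, and the sources used here do not say whether strand was kept. Of 12 genes that act with endoglin, 8 were higher and 4 lower, with 2 past the fold in each direction and a median of 0.13. The type I receptor Acvrl1, which binds the same ligands, was at 27.8 and 25.7 FPKM, and the type II receptor Tgfbr2 was at 64.3 and 64.4. The target gene Id1 was at 21.4 and 11.7 (log2 ratio 0.82), and Id3 was at 79.8 and 54.4 without passing the fold. The inhibitory Smads went apart: Smad7 was at 6.93 and 4.25 and Smad6 at 2.28 and 4.68. Tgfbr1, the type I receptor of TGF-beta, was at 7.31 and 12.7 (log2 ratio -0.72).

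Of the 10 genes, Vwf differed most between the groups. The gene (ENSMUSG00000001930, chromosome 6, 125546774 to 125686679, plus strand) has 52 exons in its longest coding transcript of 8834 bases. It was at 52.5 FPKM in HSF V30M and 27.3 in HSF WT, corresponding to about 9809 to 11588 and 3647 to 4911 fragments. The fold of 1.92 had a counting interval of 1.85 to 1.99, or of 1.42 to 2.63 on its shortest transcript. Vwf was the most abundant member in HSF V30M and the fourth in HSF WT. Relative to Pecam1 it was at 1.17 (1.12 to 1.22) in HSF V30M and at 0.484 (0.460 to 0.508) in HSF WT. Vwf is also made by megakaryocytes and carried by platelets. Of 9 platelet and megakaryocyte genes, 2 averaged 1 FPKM or more. Itga2b was at 10.9 and 6.31 FPKM and Pf4 at 42.1 and 49.9, and the list summed to 57.6 FPKM and 57.7 FPKM, in the same order of groups. The defining platelet gene Gp9 was at 0.71 and 0.21 FPKM, and Gp6 was at 0.07 in HSF V30M and listed at 0 in HSF WT. All 6 erythrocyte genes were higher in HSF V30M, with a median log2 ratio of 1.40 and a summed FPKM of 291.5 against 100.6. The part of blood left in the nerve was not tested.

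Plvap and Emcn belong to the more permeable vessels and to capillaries and veins. Plvap (ENSMUSG00000034845, chromosome 8, 71497765 to 71511752, minus strand) has 1 annotated transcript and was at 30.8 FPKM in HSF V30M and 32.9 in HSF WT, a fold of 0.938 (0.859 to 1.02). Emcn (ENSMUSG00000054690, chromosome 3, 137341067 to 137432185, plus strand) was at 7.67 and 6.35, a fold of 1.21 (1.02 to 1.42, or 0.845 to 1.74 on its shortest transcript), on the smallest number of fragments of the 10 genes, 396 to 468 against 234 to 316. Plvap was compared with Cldn5, the claudin of barrier endothelium. Cldn5 was at 100.2 and 57.9 FPKM, so that Plvap was 0.308 times Cldn5 in HSF V30M (0.287 to 0.329) and 0.568 times in HSF WT (0.519 to 0.621). Of the other junction and transport genes of the barrier, Slc2a1, the glucose transporter, was at 120.01 and 101.4, Tjp1 at 112.4 and 126.8 and Abcg2 at 39.2 and 30.7. In that list 1 of 9 genes passed the fold, Slc16a1, a monocarboxylate transporter, at 26.4 and 42.7.

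**Figure D3:**
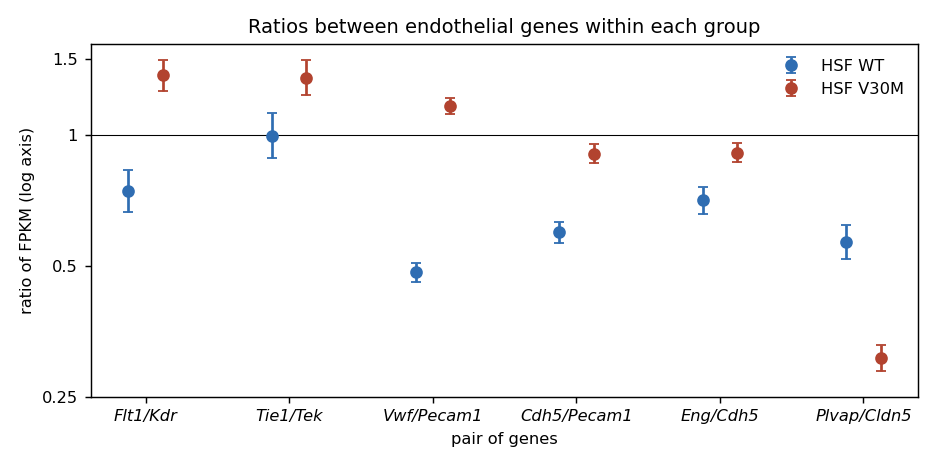
Ratio of FPKM between pairs of endothelial genes (log axis) within HSF WT (blue) and HSF V30M (red), with bars for the 95% counting interval on the longest coding transcripts. Flt1/Kdr and Vwf/Pecam1 lie below 1 in HSF WT and above 1 in HSF V30M, and Plvap/Cldn5 is lower in HSF V30M at 0.308.

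By level, the members ranged 7.17-fold in HSF V30M and 9.80-fold in HSF WT. Pecam1, Cdh5, Plvap, Vwf and Eng formed the upper part in both groups, at 24.0 FPKM or more, and Kdr, Flt1, Tek, Tie1 and Emcn the lower part, at 11.5 or less. In HSF V30M the order from the top was Vwf, Pecam1, Cdh5, Eng, Plvap, Tie1, Flt1, Tek, Emcn and Kdr, in which Tek and Emcn, and Emcn and Kdr, did not differ beyond counting error. In HSF WT the order was Pecam1, Cdh5, Plvap, Vwf, Eng, Tek, Tie1, Kdr, Emcn and Flt1. There the intervals of Cdh5 and Plvap overlapped, as did those of each pair of neighbours from Tek to Flt1. The 10 genes summed to 251.2 FPKM in HSF V30M and to 211.5 FPKM in HSF WT, a ratio of 1.19. Vwf made up 20.9% and 12.9% of these sums, and Pecam1 17.9% and 26.7%.

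The other endothelial genes make up a list of 26, none of them a member. Of these, 19 were higher and 7 lower in HSF V30M, and 3 passed the fold, all higher, beside 8.22% of the background genes. The median log2 ratio was 0.31. For the 19 genes averaging 5 FPKM or more, 12 of them higher, it was 0.10, and 0.54 for the 7 genes below 5, all of which were higher. The genes past the fold were Nos3, which makes nitric oxide in endothelium, at 5.62 and 2.26 FPKM, Cldn5, and Myct1 at 2.68 and 1.14. Egfl7, a matrix protein secreted by endothelium, was at 95.5 and 78.6, and Cd34 was at 52.9 and 54.0. Measured from the median of this list, 2 members passed the fold, Vwf as higher (0.60) and Pecam1 as lower (-0.64). Measured from the 19 genes averaging 5 FPKM or more, they were Vwf (0.82) and Flt1 (0.61), both higher, while Pecam1 was at -0.43 and Eng at 0.51. Measured from the median of 10 Schwann cell genes, which was 0.23, only Vwf did (0.68), so that the calls of Flt1, Eng and Pecam1 depend on what they are measured against.

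Of 16 transcription factors that set endothelial identity, 10 were higher and 6 lower, with a median of 0.14 (0.073 over those averaging 5 FPKM or more), and 1 passed the fold. It was Sox17, a factor of arterial endothelium, at 11.5 FPKM in HSF V30M and 6.14 in HSF WT. The most abundant were Epas1, the hypoxia-responsive factor, at 42.5 and 36.7, Ets2 at 29.98 and 33.4, and Lmo2 at 29.4 and 33.7. Of 11 arterial genes, 10 were higher and 1 lower, with a median of 0.36 and 2 past the fold. Of the background genes, 8.22% were higher beyond the fold, and neither list was tested against this share. Sema3g, a semaphorin of arterial endothelium, was at 54.3 and 22.6 (log2 ratio 1.23), and Hey1, a Notch target, was at 6.91 and 4.19. Notch1 was at 24.6 and 18.5, and its ligand Jag1 at 13.2 and 15.6.

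Of 7 venous or inducible adhesion genes, 4 were higher and 3 lower, with a median of 0.02. Nr2f2, the venous identity factor, was at 200.3 FPKM in HSF V30M and 226.3 in HSF WT, and is also made by other cells of connective tissue. Vcam1, an adhesion molecule for leukocytes, was the one past the fold, at 4.30 and 8.45, while Icam1 was at 16.6 and 16.3 and Ephb4, a venous receptor, at 22.2 and 18.3. Of 5 lymphatic genes, 3 were higher and 2 lower, with a median of 0.02, which was -0.12 over those averaging 5 FPKM or more, and none past the fold. Of these, Ccl21a was at 25.1 and 34.9, Reln at 122.8 and 107.7 and Pdpn at 14.7 and 14.4. Prox1, at 0.66 and 0.53, and Stab2, at 0.24 and 0.91, averaged under 1 FPKM and were not counted. The part of lymphatic vessels in the values of this list was not tested. The 5 caveolar genes had a median of 0.18, with Cav1 at 569.2 and 503.2, far above any member. The part of endothelium in the values of this list was not tested.

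The cells around the vessels and the tissues that may adhere to a nerve were described in the same way. Pericyte and smooth muscle genes had a median of 0.12, with 2 of 11 past the fold in each direction. The pericyte gene Rgs5 was at 32.7 and 19.5 FPKM and the contractile gene Cnn1 at 4.74 and 2.61, past the fold as higher. Tagln, at 472.0 and 1102, and Myh11, at 17.0 and 26.3, also contractile, were past it as lower, and Acta2 was at 147.2 and 137.2. All 7 skeletal muscle genes were lower past the fold, with a median of -2.03 and a summed FPKM of 44.6 in HSF V30M against 163.0 in HSF WT, and all 7 adipocyte genes were lower, with a median of -0.41, 2 of them past the fold. Muscle and fat have capillaries of their own, and the part of such tissue in the endothelial values was not tested. Schwann cell genes had a median of 0.23, and fibroblast genes one of -0.15.

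**Figure D4:**
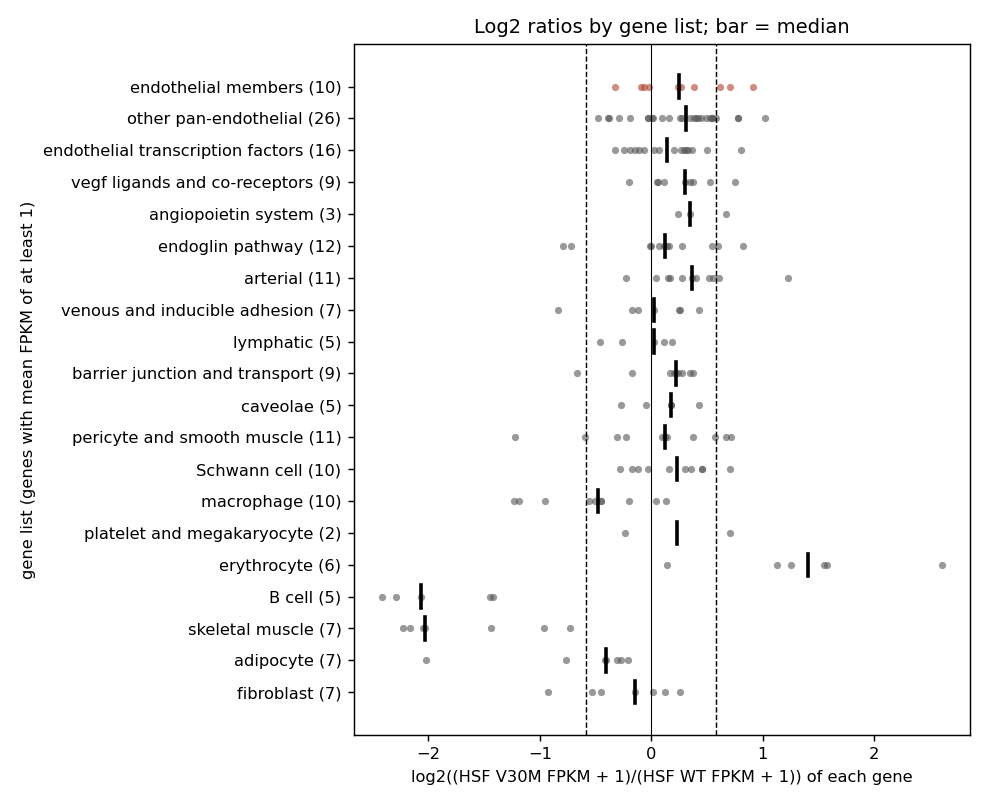
HSF V30M relative to HSF WT as log2 ratio of FPKM + 1 for each gene averaging 1 FPKM or more (dots; red for the 10 members), by gene list with the number of genes in brackets; black bars are medians and dashed lines the fold of 1.5. The endothelial lists have medians between 0.02 and 0.36, against -2.03 for skeletal muscle and 1.40 for erythrocytes.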

How the data were processed

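RNA of sciatic nerve was sequenced by the authors with Ion Torrent libraries. Per the labels, STAR, Cufflinks and Cuffdiff were used on GRCm38, the genome of C57BL/6J and not of the 129 strain studied. The versions, options and the annotation are not given in the sources used here. The deposited table holds for each gene 1 FPKM value per group, with decimal commas, rounded to 2 decimals in HSF V30M. The authors' fold changes, p-values and q-values in the same table were not used. With 1 value per group no test was run, and 23 genes that the authors mark as having too many alignments were left out.

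A pseudocount of 1 was added to both groups before the log2 ratio, HSF V30M relative to HSF WT, was taken. A gene was counted as past the fold beyond 1.5, with a mean FPKM of at least 1. Single-transcript genes alone in their locus gave the worth of 1 fragment: with effective lengths for fragments of mean 200 and SD 80 bases, 99.8% of 988 low values in HSF WT lay within 2% of 1 of 2 steps, and in HSF V30M 61.9% of 197 did so and 98.0% lay within the rounding. Numbers of fragments assume the longest coding transcript and run from the larger to the smaller step. Counting intervals use the larger step (exact Poisson for levels, Clopper-Pearson for ratios). They were tested on simulated data.

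Positions and transcripts are from GENCODE M21 (GRCm38), which holds 50369 of the gene identifiers. Promoters are from RefSeq (GRCm38.p6), which matched 6 of the 10 members. Members and lists were chosen with earlier results of these data known, and the pairs of genes and the motifs with values known. The rule for naming takes all members and, in each list, up to 5 genes past the fold and the 3 most abundant. Not all of those in the lists of other cell types and caveolae were printed, and 1 of them is not reported here. Gp9 and Gp6, as defining platelet genes, and Pgf, Prox1, Stab2, Adgre1 and Cd163 were named after their values were seen. Older symbols in the table were used for Cavin genes. The alternatives tried were median-of-ratios scaling, a fold over 2, a minimum mean of 5 or none, a pseudocount of 0.1, and scaling to the endothelial list, to its genes with a mean of at least 5, or to the Schwann cell list. Scripts ran on Python 3.11.15 with scipy 1.17.1, pandas 2.3.3 and numpy 2.4.6, and plots were drawn with matplotlib 3.10.9.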

Additional observations from a re-analysis of the deposited data

How the results depend on the processing

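No paired analysis was possible because mice were pooled into 1 FPKM per group, and for the same reason no replicate could be left out. Of the 10 members, 3 were past the fold as reported and also with a pseudocount of 0.1, with median-of-ratios scaling, with a minimum mean of 5 and with none. With a fold over 2 the number was 0, measured from the other endothelial genes it was 2 (Vwf and Pecam1), from the 19 of them averaging 5 FPKM or more also 2 (Vwf and Flt1), and from the Schwann cell median 1 (Vwf). The last 2 references were chosen after seeing the data. The median log2 ratio of the members went from 0.25 to -0.062 measured from the other endothelial genes, to 0.15 from the 19 and to 0.018 measured from the Schwann cell genes. That of the other endothelial genes was 0.38 with a pseudocount of 0.1 and 0.10 with a minimum mean of 5, where fewer genes are counted. The VEGF list had a median of 0.37 and 0.063 under the same settings. Outside the members, the list genes past the fold numbered 43, among them 5 erythrocyte, 5 B cell and 7 skeletal muscle genes. They numbered 53 with a pseudocount of 0.1, 32 with a minimum mean of 5 and 47 with none. With a fold over 2, which is stricter by construction, the number was 21. Of the background genes, 16.7% were past the fold and 7.92% past a fold of 2. The matching share of the list genes was not taken, so these counts are no result about the lists. On the shortest annotated transcript, also chosen after seeing the data, the counting intervals of Cdh5, Flt1 and Emcn, from 0.907, 0.765 and 0.845 upwards, no longer lay above 1. Those of Tie1, Vwf and Eng, from 1.18, 1.42 and 1.02 upwards, did. Depth did not limit the detection of any member, since the smallest value stood for 234 fragments or more on the longest coding transcript. What limits every comparison is the absence of values per mouse.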
